A study of Mus musculus with 6 samples.

Results

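To examine RNA of macrophages, monocytes and dendritic cells in sorted regulatory T cells (Tregs), 10 genes were followed: Csf1r, Cst3, Lyz2, Itgam, Itgax, C1qa, C1qb, Cd68, Adgre1 and Siglech. All 10 were found by symbol among the 32285 rows of the count table, and all 10 passed the filter on low counts. They were picked because earlier values of this same comparison did not all point one way, so their differences between the groups are given as a description, with no test. Bulk RNA-seq was performed on CD4+CD25+ spleen Tregs of C57BL/6 mice, with 3 WT and 3 KO libraries. KO mice carried ERCre and floxed alleles of Zfp335 (Zfp335f/f), a zinc finger transcription factor gene. The labels call the WT animals wild-type littermates, whereas the methods of the study describe ERCre mice that also received tamoxifen. ERCre is a Cre recombinase fused to a mutant estrogen receptor domain. It is not limited to Tregs, so other cells of these mice could lose Zfp335 as well. By those methods, tamoxifen at 10 mg/mL was injected 3 times into 6-week-old mice, which were sacrificed on day 7. Nothing states whether each library is 1 mouse or a pool, so p values measure the spread between these libraries.

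Many macrophages depend on Csf1r, the receptor for colony-stimulating factor 1, and long-lived spleen macrophages clear old red cells and dying cells. Classical monocytes and dendritic cells share part of their gene program with them but differ in others, so that Lyz2 and Itgam are also abundant in neutrophils and monocytes, C1q is mainly a macrophage product in tissues, Itgax marks dendritic cells and Siglech marks plasmacytoid dendritic cells. None of these genes defines a Treg, although activated T cells can use some of them. In bulk RNA, fewer cells of a type and less RNA per cell cannot be told apart.

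The deletion and the sorted cells were checked first. Library totals were between 133283969 and 209041812 counts. Zfp335 was 115.2 to 124.4 CPM (counts scaled to a library of 1e+06, relative to the TMM-scaled library size) in WT and 14.3 to 15.1 CPM in KO, a log2 difference of -3.02 (SE 0.046, edgeR adjusted p = 1.2e-13). Foxp3, the lineage factor of Tregs, was between 1046 and 1154 CPM in every library, and Cd3e, a T cell receptor complex subunit, between 294.6 and 308.5 CPM. The groups also differed in RNA of the sex chromosomes: Xist was 0.187 to 0.424 CPM in WT and 123.9 to 144.7 CPM in KO, while the Y-linked gene Ddx3y was 98.3 to 105.2 CPM in WT and 76.6 to 80.0 CPM in KO. Kdm5d and Uty, also Y-linked, were lower in every KO library too, and Eif2s3y overlapped. Xist and Y-linked RNA thus occurred together in each KO library, and whether a KO library pools mice of both sexes, which would change what n = 3 stands for, was not tested. Sex-linked RNA separates the groups as the genotype does, and the effect of that on the genes below cannot be told apart from the deletion.

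The 10 genes fell into 3 patterns. C1qa, C1qb and Csf1r were higher in KO, Lyz2, Siglech, Itgam, Itgax and Cd68 were lower, and Cst3 and Adgre1 overlapped between the groups. In all, 8 of the 10 genes had no overlap between the 3 WT and the 3 KO libraries, 3 with KO above and 5 with KO below. Over all 17307 genes tested, 38.3% had no overlap. Since the genes were chosen on this comparison, nothing is read from their count. Their median log2 difference was -0.13, against -0.0042 over all genes tested.

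**Figure D1:**
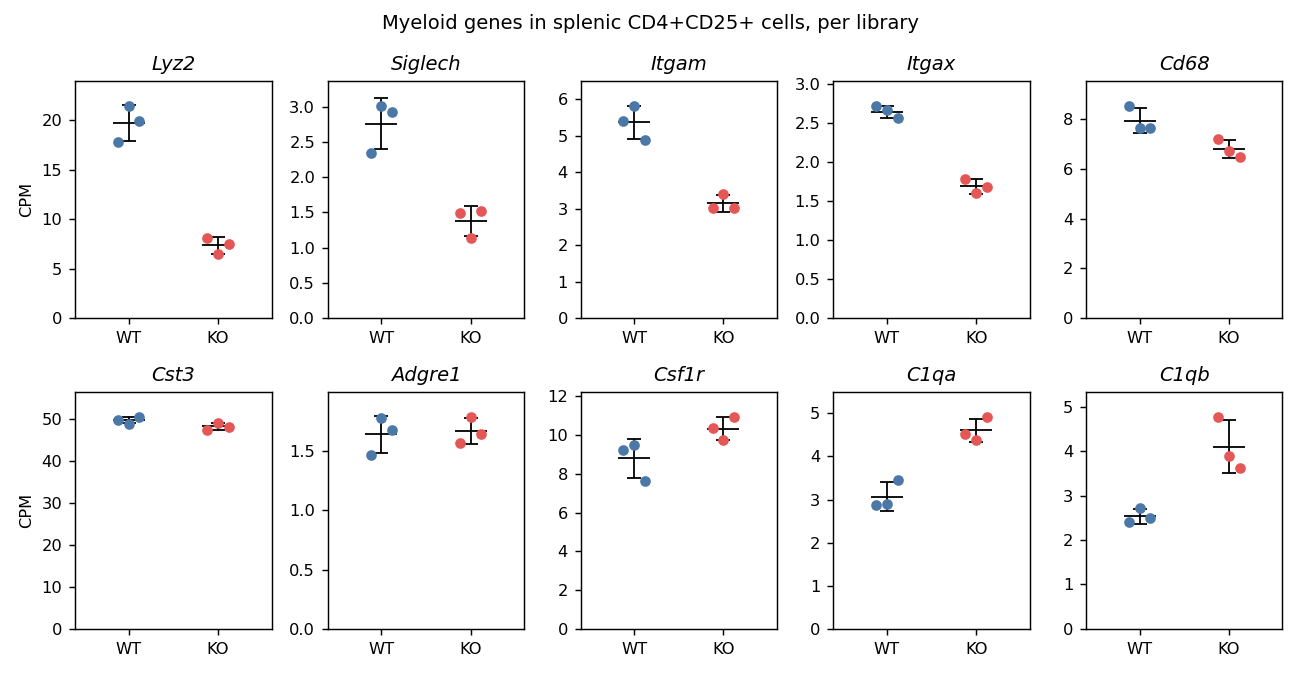
CPM (vertical axes, from 0) of the 10 genes in WT and KO. Each point is 1 library, and bars give the mean and SD of 3 libraries. Lyz2, Siglech, Itgam, Itgax and Cd68 lie lower in every KO library, Csf1r, C1qa and C1qb lie higher, and Cst3 and Adgre1 overlap.

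Per kilobase of exonic length (GENCODE M21), all 10 genes were far below the Treg gene Foxp3, which stood at a level of 248.2 CPM per kilobase in WT and 229.8 in KO. Cst3, which encodes the secreted protease inhibitor cystatin C, was the most abundant of the 10 in both groups, at 39.2 ± 0.600 CPM per kilobase in WT and 38.0 ± 0.683 in KO (SD, n = 3). In WT it was followed by Lyz2 at 14.99, Cd68 at 6.30, C1qa at 2.95, C1qb at 2.33, Csf1r at 1.52, Itgam at 1.07, Siglech at 0.815, Itgax at 0.550 and Adgre1 at 0.507 CPM per kilobase. Of these neighbours only Itgax and Adgre1 overlapped in WT. In KO the order changed: Lyz2 was at 5.59 and Cd68 at 5.40 CPM per kilobase, which overlapped, and C1qa at 4.43 and C1qb at 3.77 overlapped too. Below them, Csf1r was at 1.79, Itgam at 0.626, Adgre1 at 0.515, Siglech at 0.409 and Itgax at 0.351 CPM per kilobase in KO, and of these only Siglech and Itgax overlapped.

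C1qa and C1qb encode the A and B chains of C1q, the first component of the classical complement pathway, which binds antibody complexes and dying cells. On chromosome 4 of GRCm38, the genes lie on the minus strand in the order C1qb (136880129 to 136886187), C1qc (136889804 to 136893065) and C1qa (136895917 to 136898803), with 3616 and 2851 bases between them and no other protein-coding gene. RefSeq promoters on GRCm38.p6 were found for 8 of 11 genes looked up (7 of the 10 and C1qc), and those of C1qb and C1qc (higher in KO), and of Lyz2 and Itgam (lower in KO), are shown so that the windows can be set beside the opposite differences. Each is the 250 bases before the start site, 5′ to 3′ on the strand of the gene, from chr4:136886201-136886450 (minus strand), chr4:136892915-136893164 (minus), chr10:117282273-117282522 (minus) and chr7:128062390-128062639 (plus). Capitals mark matches on either strand to GAGGAA, a core of PU.1 sites, to TTGCNNAA, a C/EBP-type site, or to TGCTGA, a core of MAF sites, and none of the matches overlap.
C1qb: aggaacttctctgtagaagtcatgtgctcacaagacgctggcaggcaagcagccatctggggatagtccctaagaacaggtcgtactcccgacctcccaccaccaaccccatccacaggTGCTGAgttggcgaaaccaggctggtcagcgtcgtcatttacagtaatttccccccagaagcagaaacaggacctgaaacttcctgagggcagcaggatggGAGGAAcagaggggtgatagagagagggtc
C1qc: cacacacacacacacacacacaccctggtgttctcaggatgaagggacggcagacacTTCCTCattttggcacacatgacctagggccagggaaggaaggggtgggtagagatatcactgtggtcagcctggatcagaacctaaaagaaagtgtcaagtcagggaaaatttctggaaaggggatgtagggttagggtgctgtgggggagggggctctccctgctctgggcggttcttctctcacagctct
Lyz2: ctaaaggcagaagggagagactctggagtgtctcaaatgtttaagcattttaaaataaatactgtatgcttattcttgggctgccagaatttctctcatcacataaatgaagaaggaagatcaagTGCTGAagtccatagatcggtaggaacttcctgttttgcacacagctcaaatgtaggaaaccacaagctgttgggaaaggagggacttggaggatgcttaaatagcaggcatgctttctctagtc
Itgam: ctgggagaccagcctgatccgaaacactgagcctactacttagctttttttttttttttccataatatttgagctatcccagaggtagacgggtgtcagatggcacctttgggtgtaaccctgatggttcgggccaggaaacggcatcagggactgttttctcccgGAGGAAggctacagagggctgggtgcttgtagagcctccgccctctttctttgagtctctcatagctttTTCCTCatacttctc
The letters GAGGAA were in 5 of the 8 windows and in 23.3% of all 32851 RefSeq promoter windows of this length. In C1qb they stood 30 bases before the RefSeq start site and in C1qc 193 bases before it, on the opposite strand, whereas Itgam had a match at 84 and another at 15 bases and the Lyz2 window had none. The C1qc and Lyz2 windows reach into the gene spans of GENCODE M21. For these 2 genes the distance to the start site thus depends on the annotation. TGCTGA was in 3 of the 8 windows, C1qb, Lyz2 and Cst3, and in 16.1% of all windows. TTGCNNAA was in 2 of the 8, Cd68 and Siglech, and in 9.56% of all windows. The 5 genes with GAGGAA were C1qb and C1qc, which were higher in KO, Itgam and Cd68, which were lower, and Cst3, which overlapped. Whether these letters bear on the differences was not tested.

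C1qa was 2.86, 2.89 and 3.46 CPM in WT replicates 1, 2 and 3 and 4.52, 4.38 and 4.91 CPM in the KO replicates of those numbers. Every KO library lay above every WT library, and the log2 difference was 0.60 (SE 0.107). C1qb was 2.40, 2.72 and 2.49 CPM in WT and 4.77, 3.90 and 3.63 CPM in KO. Its KO libraries were again all above WT but spread more widely, with a log2 difference of 0.68 (SE 0.127) and a ratio of 1.62. The count of C1qa divided by that of C1qb was 1.06 to 1.39 in WT and 0.948 to 1.35 in KO, so the balance of the A and B chains overlapped between the groups. C1qc, the third chain, which was not among the 10, was 3.30, 2.76 and 3.16 CPM in WT and 4.40, 3.68 and 4.29 CPM in KO and rose by 0.43 on the log2 scale (SE 0.114, edgeR adjusted p = 0.0156). That call was lost without WT replicate 2, KO replicate 1 or KO replicate 3, with a highest adjusted p of 0.0939 and log2 differences from 0.34 to 0.51 over the alternatives.

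Csf1r, the growth factor receptor, was 9.26, 9.51 and 7.63 CPM in WT and 10.3, 9.74 and 10.9 CPM in KO. The lowest KO library was only slightly above the highest WT library, and the log2 difference was 0.22 (SE 0.085), or 0.14 without WT replicate 3, the lowest library. Csf1r overlaps Hmgxb3, a gene on the other strand that shares 14.3% of the 50-base stretches of Csf1r, and because no strand option is stated for this table, reads of the pair may be mixed. Hmgxb3 was more abundant, at 76.3 to 79.6 CPM in WT and 79.4 to 82.9 CPM in KO, and its log2 difference was 0.051 (SE 0.036, edgeR adjusted p = 0.357). Of the ligands of Csf1r, Csf1 fell from 46.1, 40.9 and 41.6 CPM in WT to 32.9, 36.2 and 36.5 CPM in KO, with a log2 difference of -0.28 (SE 0.056, edgeR adjusted p = 0.00251). Il34, the other ligand, was at most 0.111 CPM in any library and was not called (log2 difference 0.55, SE 0.730, edgeR adjusted p = 0.647). Its log2 difference was 0.056 without KO replicate 2 and 0.30 without WT replicate 3.

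Relative to Csf1r within each library, which cancels the scaling, C1qa and C1qb together were 0.568, 0.590 and 0.779 in WT and 0.898, 0.850 and 0.781 in KO. Every KO ratio was above every WT ratio, although WT replicate 3 and KO replicate 3 nearly met. Relative to Cd68 the same sum was 0.619 to 0.778 in WT and 1.23 to 1.32 in KO, which did not overlap.

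Lyz2, which encodes the lysozyme of macrophages, monocytes and neutrophils, had the largest difference of the 10 genes. On chromosome 10 from 117277331 to 117282321, it was 17.9, 21.4 and 19.9 CPM in WT and 8.15, 6.47 and 7.45 CPM in KO. The KO libraries were all below WT, with a log2 difference of -1.43 (SE 0.089) and a ratio of 0.373. Lyz2 shares 15.4% of its 50-base stretches with Lyz1, the gene next to it, which was at most 0.386 CPM in any library. The count of Lyz2 divided by that of Cst3 was 0.359 to 0.438 in WT and 0.132 to 0.172 in KO. Set against C1q, the order turned over: the summed count of C1qa, C1qb and C1qc was 0.391 to 0.479 of Lyz2 in WT and 1.68 to 1.85 times Lyz2 in KO.

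Itgam and Itgax encode the integrin chains CD11b and CD11c, which pair with the chain of Itgb2 on macrophages, monocytes, granulocytes and dendritic cells. They are neighbours on chromosome 7, Itgam from 128062640 to 128118491 and Itgax from 128129547 to 128150657, and Itgad, which encodes CD11d, a chain known from red pulp macrophages, follows 3718 bases after Itgax. Itgam was 5.41, 5.80 and 4.89 CPM in WT and 3.01, 3.40 and 3.02 CPM in KO, below WT in every library, with a log2 difference of -0.78 (SE 0.102). Itgax was 2.71, 2.66 and 2.56 CPM in WT and 1.78, 1.596 and 1.68 CPM in KO. The groups did not overlap, and the log2 difference was -0.66 (SE 0.123). Itgad, which was not among the 10, moved the opposite way. It rose from 2.02, 2.47 and 2.02 CPM in WT to 4.62, 4.11 and 3.73 CPM in KO, a log2 difference of 0.92 (SE 0.127, edgeR adjusted p = 0.000154). Itgax shares 8.02% of its 50-base stretches with Itgad. Itgam shares 66.3% of its stretches with the overlapping gene model Gm49368, which had no row under that symbol in the counts, so the pair could not be compared. Itgb2, the common partner chain, is used by T cells too and was 708.5 to 753.0 CPM in WT and 756.7 to 780.6 CPM in KO (log2 difference 0.072, SE 0.033, edgeR adjusted p = 0.14; the adjusted p was 0.024 without WT replicate 1).

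**Figure D2:**
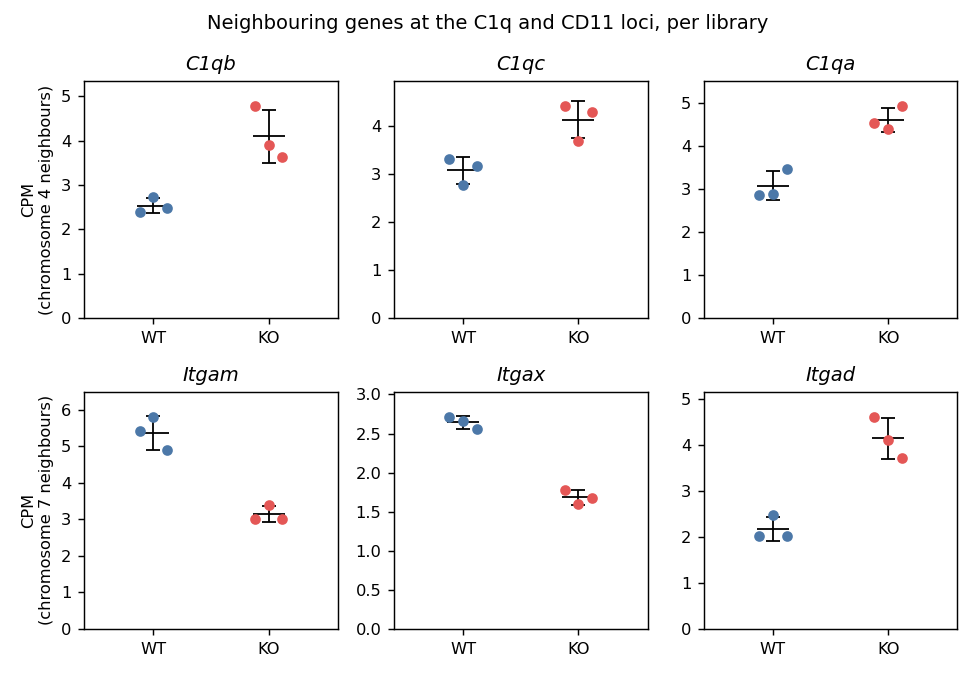
CPM (vertical axes, from 0) of 3 neighbouring C1q genes (top) and 3 neighbouring CD11 integrin genes (bottom) in WT and KO; points are libraries, and bars give the mean and SD of 3 libraries. All 3 C1q genes lie higher in every KO library, whereas Itgam and Itgax lie lower and Itgad lies higher.

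Siglech, a sialic acid-binding type lectin of plasmacytoid dendritic cells that lies on chromosome 7 from 55768178 to 55778925, was 2.34, 3.003 and 2.93 CPM in WT and 1.49, 1.14 and 1.53 CPM in KO. All KO libraries were lower, with a log2 difference of -0.997 (SE 0.158) and a ratio of 0.502. Cd68, a lysosomal membrane protein of phagocytes on chromosome 11 from 69664213 to 69666153, was 8.50, 7.62 and 7.64 CPM in WT and 7.18, 6.73 and 6.47 CPM in KO. Its groups were close but did not overlap, with a log2 difference of -0.23 (SE 0.079).

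Cst3, on chromosome 2 from 148871722 to 148875692, was 49.7, 48.8 and 50.3 CPM in WT and 47.3, 49.0 and 48.1 CPM in KO. The groups overlapped, and the log2 difference was -0.043 (SE 0.038). Adgre1, which encodes F4/80, the surface marker by which mouse macrophages are usually stained, lies on chromosome 17 from 57358691 to 57483527 and was 1.47, 1.77 and 1.68 CPM in WT and 1.57, 1.78 and 1.65 CPM in KO. The groups overlapped, with a log2 difference of 0.028 (SE 0.146) that was -0.055 without WT replicate 1 and -0.025 without KO replicate 2. The count of Itgam divided by that of Adgre1 was 2.91 to 3.69 in WT and 1.83 to 1.92 in KO.

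Other genes of the same cell types were then counted in lists drawn from known biology. These lists, too, were chosen with earlier results of these data known. Their counts are therefore a description and not independent support for the split of the 10 genes. Over all 17307 genes, 24.1% were called by edgeR at an adjusted p under 0.05, 12% higher and 12.1% lower in KO. Of 93 other macrophage, monocyte, dendritic cell and shared myeloid genes tested (95 were in the table), 14 rose and 30 fell in KO, which is 47.3% called, and their median log2 difference was -0.25. The direction depended on the list. The share called was 52.6% for macrophage genes and 50% each for monocyte, conventional dendritic cell and shared myeloid genes. For plasmacytoid dendritic cell genes it was 28.6%, near the share over all genes. Of 19 macrophage genes, 10 rose and 0 fell (edgeR; 12 and 0 at an unadjusted p under 0.05, and 10 and 0 with DESeq2), with a median log2 difference of 0.43. With the cutoffs of the study (a fold of 1.5 or more, with P under 0.05 and its adjusted value under 0.1), 5 of them rose.

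Of the macrophage genes chosen by size, Vcam1, an adhesion molecule of red pulp macrophages and stroma, rose from 5.08, 4.96 and 4.51 CPM in WT to 9.20, 8.99 and 9.04 CPM in KO (log2 difference 0.90, SE 0.077, edgeR adjusted p = 2.12e-06). Mrc1, the mannose receptor, rose from 1.67 ± 0.082 to 2.85 ± 0.300 CPM (SD, n = 3; log2 difference 0.78, edgeR adjusted p = 0.000867). Cd163, the haemoglobin scavenger receptor, was called higher as well (log2 difference 0.78, edgeR adjusted p = 0.0269), but WT replicate 3 at 1.61 CPM lay within the KO range of 1.59 to 1.96 CPM, and the call was lost without any 1 of WT replicates 1 and 2 and KO replicates 1, 2 and 3 (adjusted p at most 0.153) and with the legacy method of edgeR (0.0704). The other genes of this list that rose, named after their values were seen, were Hmox1 and Slc40a1, which handle haem and iron, Mertk and Axl, receptors for dying cells, Apoe, Cd5l and C1qc. Axl and Apoe were the most abundant, at 53.1 to 53.7 and 33.0 to 40.3 CPM in WT. Without them, the summed level of the list was still higher, at 27.8 to 28.7 CPM in WT and 39.7 to 41.4 CPM in KO. Among the genes that did not pass were Spic, Marco, Timd4, Fcgr1, Siglec1, Slc11a1, Fcgr4 and Msr1, and Vsig4, at 0 in 2 WT libraries, did not pass the filter on low counts. Of the 19 genes tested, 15 had a positive log2 difference and 4 a negative one (Siglec1, Msr1, Fcgr1 and Marco). Siglec1 was lower in every KO library, at 1.80 to 2.15 CPM in WT and 1.44 to 1.72 CPM in KO (log2 difference -0.31, edgeR adjusted p = 0.145).

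Of 16 monocyte genes, 8 fell and 0 rose (edgeR; 9 and 0 at an unadjusted p under 0.05, and 8 and 0 with DESeq2), with a median log2 difference of -0.40. With the cutoffs of the study, 5 fell. Chil3, a chitinase-like protein of monocytes and neutrophils, fell from 2.57, 3.81 and 2.69 CPM to 0.286, 0.265 and 0.421 CPM (log2 difference -3.24, SE 0.249, edgeR adjusted p = 8.21e-07). Fn1, fibronectin, fell from 5.45 ± 0.889 to 2.95 ± 0.619 CPM (SD, n = 3; log2 difference -0.86, edgeR adjusted p = 0.00125). Ccr2, the receptor that brings monocytes out of the marrow and is also used by activated T cells, fell from 55.7 ± 4.85 to 35.1 ± 0.829 CPM (SD, n = 3; log2 difference -0.67, edgeR adjusted p = 2.38e-06).

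Of 18 conventional dendritic cell genes, 7 fell and 2 rose, with a median log2 difference of -0.35; with at least 1 CPM required in 3 libraries, 3 fell. Wdfy4, which acts in cross-presentation, fell from 7.07 ± 0.328 to 3.63 ± 0.385 CPM (SD, n = 3; log2 difference -0.96, edgeR adjusted p = 8.12e-06). Sirpa, a receptor for CD47, fell by 0.69 on the log2 scale (edgeR adjusted p = 0.000747), and Irf8, a dendritic cell factor that lymphocytes also express, fell by 0.20 (edgeR adjusted p = 0.00291). Both genes that rose, Ccl22 and Fscn1, are known from mature dendritic cells: Fscn1 went from 3.85 ± 0.393 to 6.41 ± 0.208 CPM (SD, n = 3; log2 difference 0.72, edgeR adjusted p = 8.48e-05), and Ccl22 had a log2 difference of 1.09 (edgeR adjusted p = 0.00108).

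Of 14 plasmacytoid dendritic cell genes, 3 fell (5 without WT replicate 1) and 1 rose, with a median log2 difference of -0.50. That is 28.6% called, near the 24.1% over all genes, so nothing is read from this count. Spib, a transcription factor of plasmacytoid dendritic cells and B cells, fell from 4.62, 4.87 and 5.46 CPM to 1.69, 1.43 and 1.56 CPM (log2 difference -1.67, SE 0.120, edgeR adjusted p = 4.03e-07). Rnase6 fell by 1.29 on the log2 scale (edgeR adjusted p = 0.000897), and Lair1, a collagen receptor, by 0.54 (edgeR adjusted p = 0.0351). The call of Lair1 was lost without WT replicate 2, WT replicate 3, KO replicate 1 or KO replicate 2, with an adjusted p of at most 0.148. Ccr9, a gut-homing receptor also found on T cells, rose by a log2 difference of 0.28 (edgeR adjusted p = 0.00675).

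Of 26 genes shared by myeloid cells, 12 fell and 1 rose, with a median log2 difference of -0.37. Lgals3, galectin-3, fell from 15.9, 17.0 and 18.5 CPM in WT to 7.74, 7.92 and 7.89 CPM in KO (log2 difference -1.12, SE 0.070, edgeR adjusted p = 1.05e-07). Alox5ap fell by 1.09 (edgeR adjusted p = 0.00128) and Pirb by 0.95 on the log2 scale (edgeR adjusted p = 0.000876). Tyrobp, the adaptor through which many myeloid receptors signal, fell from 4.08, 4.55 and 4.32 CPM to 2.61, 2.90 and 3.32 CPM (log2 difference -0.55, SE 0.111, edgeR adjusted p = 0.00295). Spi1, which encodes PU.1 and is named after its values were seen, fell from 2.22 ± 0.279 to 1.19 ± 0.168 CPM (SD, n = 3; log2 difference -0.92, edgeR adjusted p = 0.001). Cebpb was the gene that rose, with a log2 difference of 0.24 (edgeR adjusted p = 0.0044).

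**Figure D3:**
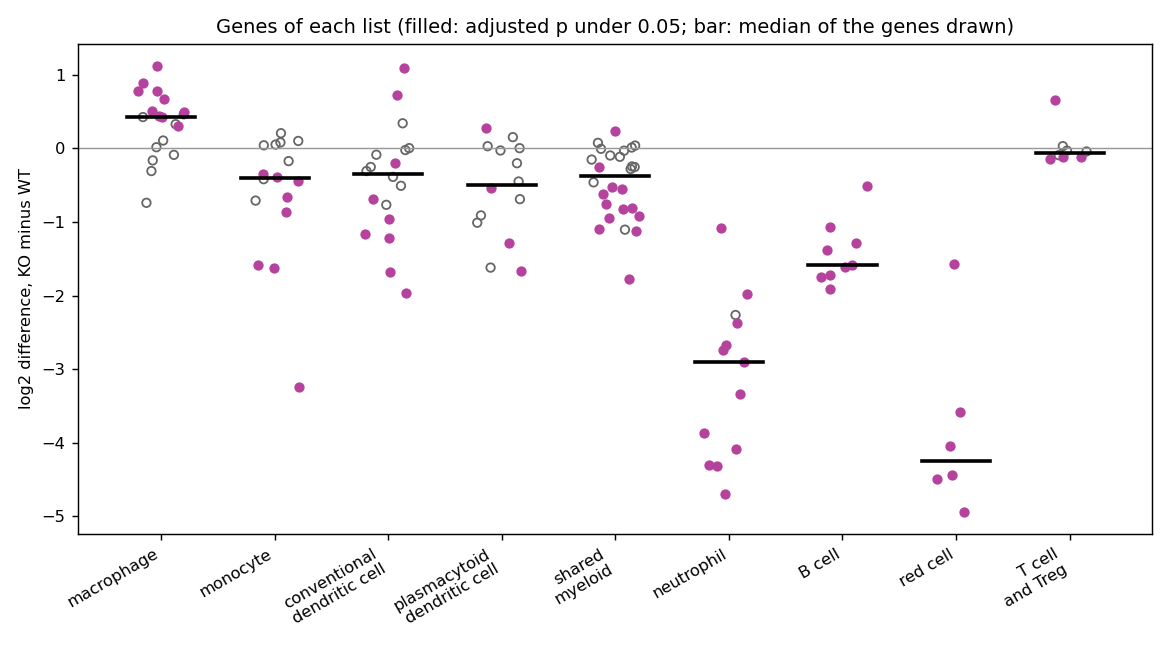
Log2 difference of KO minus WT (vertical axis) for the tested genes of each list; each point is 1 gene, filled where the edgeR adjusted p was under 0.05, and bars are medians. The macrophage list lies mostly above 0 and the monocyte, dendritic cell and shared myeloid lists mostly below. For red cells, 6 of the 7 tested genes are drawn, and the bar is their median.

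Partner genes of the 10 were counted by role. Of 12 cathepsins and related inhibitors, the proteases that cystatins bind among them, 5 fell and 2 rose (58.3% called). Ctsh fell by 0.59 (edgeR adjusted p = 0.00136), Lgmn by 0.26 (edgeR adjusted p = 0.0025) and Ctsa by 0.20 on the log2 scale (edgeR adjusted p = 0.000751). Ctsb and Cst7 were called higher by 0.14 (edgeR adjusted p = 0.0145) and 0.18 (edgeR adjusted p = 0.0154) on the log2 scale. The call of Ctsb was lost without WT replicate 2, KO replicate 1 or KO replicate 2 (adjusted p at most 0.0875), and that of Cst7 without KO replicate 1 (0.0874). Of 14 complement genes beyond C1q, 1 rose and 1 fell, which is 14.3% called, against 24.1% over all genes. Both, C4b and C3ar1, were at most 1.11 and 0.440 CPM in any library. Of 5 genes of leukocyte integrins and their ligands, Itgad, Icam1 (log2 difference 0.22, edgeR adjusted p = 0.00131) and Itgal (0.13, edgeR adjusted p = 0.0237) rose and Icam2 fell by 0.16 (edgeR adjusted p = 0.0168), which is 80% called. The call of Itgal was lost without WT replicate 2 or any 1 KO library or with upper-quartile scaling (adjusted p at most 0.105), and that of Icam2 without WT replicate 2, KO replicate 2 or KO replicate 3 (at most 0.1). Of the growth factor ligands, Csf1 and Flt3l, the ligand for dendritic cell development, fell, the second by 0.15 on the log2 scale (edgeR adjusted p = 0.00658), and 0 of 4 rose (edgeR; 0 also at an unadjusted p under 0.05 and with DESeq2). The share called among these 4 genes was 50%. Over the 35 partner genes 6 rose (3 without KO replicate 1) and 9 fell, which is 42.9% called.

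Genes of other cells moved with the groups as well. Of 13 neutrophil genes 12 fell and 0 rose, with summed levels of 33.6 to 41.5 CPM in WT and 6.15 to 7.58 CPM in KO and a median log2 difference of -2.91. Among them were Ngp, S100a9 and Ltf, at log2 differences of -4.70, -4.32 and -4.09. All 9 B cell genes fell, from summed levels of 65.2 to 71.3 CPM to 30.2 to 31.8 CPM, with Pax5, Ebf1 and Ms4a1 at -1.92, -1.75 and -1.72. All 7 red cell genes fell, from 37.3 to 44.4 CPM to 1.89 to 2.33 CPM, with Hba-a2, Hbb-bs and Hba-a1 at -4.94, -4.50 and -4.45. Of 5 CD8 T and NK cell genes only Eomes fell (20% called), by 0.35 on the log2 scale (edgeR adjusted p = 0.0018), and summed levels were 26.6 to 27.3 CPM in WT and 23.3 to 25.2 CPM in KO. In these 4 lists 0 genes rose with edgeR, also at an unadjusted p under 0.05 and with DESeq2. The macrophage list went from summed levels of 114.5 to 122.6 CPM in WT to 155.8 to 158.6 CPM in KO, opposite to the lists of neutrophils, B cells and red cells. Lyz2 and Itgam are also neutrophil genes and Spib is also a B cell gene. Neutrophils or B cells may express other genes of the dendritic cell and shared myeloid lists too, such as Wdfy4 and Spi1. The part of neutrophils and B cells in the lower values of any list was not tested.

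**Figure D4:**
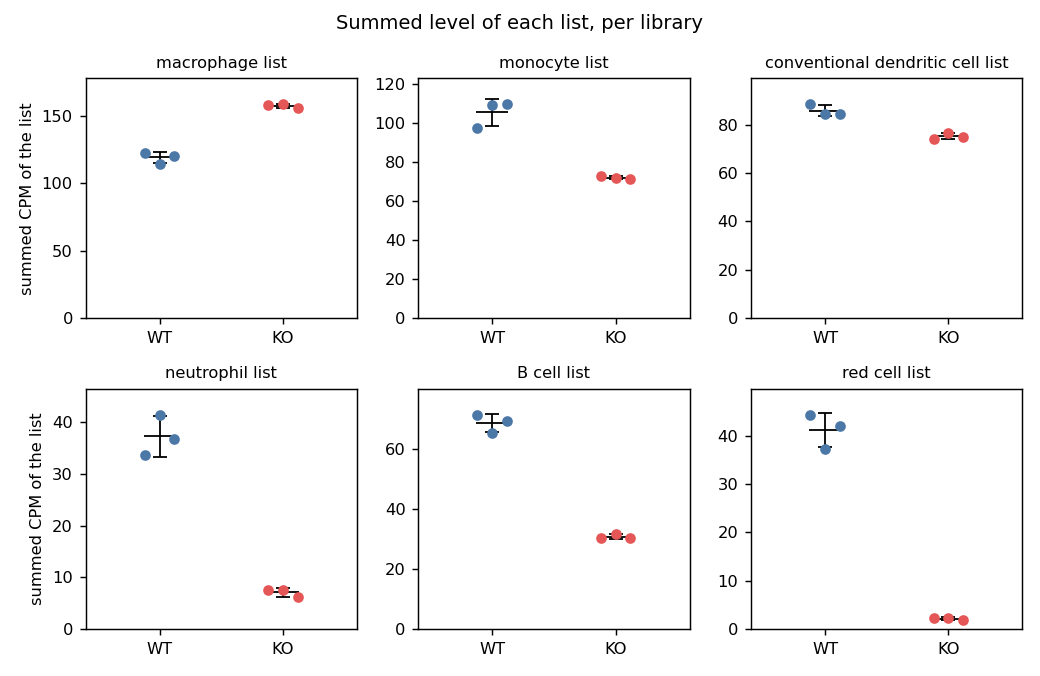
Summed CPM (vertical axes, from 0) of 6 lists in WT and KO; points are libraries, and bars give the mean and SD of 3 libraries. The macrophage sum lies higher in every KO library, and the other 5 sums lie lower. Ccr2 (mean 55.7 CPM in WT and 35.1 in KO) is the largest part of the monocyte sum. Irf8 (mean 53.0 CPM in WT and 46.0 in KO) is the largest part of the conventional dendritic cell sum. Lymphocytes can express both genes, and sums without them were not computed.

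The T cell and Treg genes had a median log2 difference of -0.066, smaller in size than in the myeloid, neutrophil, B cell and red cell lists. Their share called was 50%, however, against 24.1% over all genes. Of 8 T cell and Treg genes, Ctla4 rose from 401.1 to 419.1 CPM in WT to 635.9 to 653.6 CPM in KO (log2 difference 0.65, edgeR adjusted p = 9.56e-09). Il2ra, which encodes the CD25 used for the sort, Cd3g and Foxp3 were called lower by 0.15, 0.12 and 0.11 on the log2 scale (edgeR adjusted p = 0.00658, 0.0401 and 0.0163). The call of Il2ra was lost without KO replicate 2 (adjusted p = 0.0523), that of Foxp3 without any 1 KO library (at most 0.0922), and that of Cd3g in 5 of the 6 fits without 1 library, all but that without WT replicate 1 (at most 0.171), with a log2 difference of -0.077 without WT replicate 3. Cd3e, Cd4, Lck and Ikzf2 did not pass.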

How the data were processed

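Bulk RNA-seq of 6 libraries was analysed, from 200 ng of RNA each (TruSeq), and their groups and replicate numbers were taken from the sample titles. The authors deposited a table of raw counts by gene symbol. The submitters' processing notes name HISAT2, DESeq2 and mm10. The methods describe HISAT2 and StringTie, with no strand option listed, and the fold and P cutoffs, for Tregs of Foxp3Cre mice; for the ERCre counts, the counter, its strand setting and its annotation are not given in the sources used here. In 40 rows that repeat a symbol, the row with most counts kept the name. Counts of 1 and 2 were rarer (620 and 1045 entries) than counts of 4 (2579 entries), and no counting interval was derived, as a count may not be 1 independent fragment. All genes were tested with the quasi-likelihood test of edgeR 4.0.16 in R 4.3.3 (TMM scaling, filterByExpr, robust, not legacy), with Benjamini-Hochberg adjustment over 17307 genes. Standard errors were derived from the F statistic. The 10 genes and the lists were chosen with earlier results of these data known. Named list genes were the 3 with the largest rise and the 3 with the largest fall among those called in each list at a mean log2 CPM of 0 or more, the genes paired with one of the 10 by locus, subunit or ligand, and the T cell genes. Some list genes are counted but not reported here by name. Alternatives were RLE and upper-quartile scaling, DESeq2 1.42.0, the legacy method, other filters, the cutoffs of the study, a replicate block and leaving out each library. Gene positions are from GENCODE M21 (GRCm38, called mm10) and promoters from RefSeq (GRCm38.p6).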

Additional observations from a re-analysis of the deposited data

How the results depend on the processing

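Over 13 alternatives for the values of the 10 genes, Lyz2 stayed between -1.50 and -1.34, Siglech between -1.11 and -0.86, Itgam between -0.84 and -0.72, Itgax between -0.69 and -0.62, C1qa between 0.55 and 0.68, C1qb between 0.57 and 0.76, Csf1r between 0.14 and 0.28, Cd68 between -0.26 and -0.17 and Cst3 between -0.057 and -0.030 on the log2 scale; Adgre1 went from -0.055 to 0.10 and changed sign without WT replicate 1 (-0.055) and without KO replicate 2 (-0.025). The cause was not tested. Over the fits that each left out 1 library, genes called numbered 1399 to 2501 lower and 1341 to 2495 higher over all genes, 7 to 10 higher macrophage genes, 7 to 9 lower monocyte genes, 5 to 7 lower conventional and 2 to 5 lower plasmacytoid dendritic cell genes, 11 to 12 lower shared myeloid genes, 26 to 32 lower and 11 to 14 higher over these lists, and 6 to 8 lower and 3 to 9 higher partner genes. With the cutoffs of the study, 757 genes were lower and 446 higher, with 7 higher genes over the myeloid lists (macrophage 5, plasmacytoid dendritic 0, shared 0), 5 lower monocyte genes, and 3 lower and 2 higher partner genes; a fold minimum is part of these cutoffs. With at least 1 CPM in 3 libraries, 3 conventional dendritic cell genes were lower, of fewer genes tested. Of 739 values of 57 named genes under alternatives, 696 kept their direction and side of the threshold, 34 lost and 4 gained a call, and 5 changed sign, all of Lyz1, at -0.057 with DESeq2, -0.055 with the legacy method, -0.26 without WT replicate 1, -0.14 without WT replicate 2 and -0.38 without KO replicate 2. Deviations of same-numbered libraries correlated at 0.052, -0.0099 and -0.027 across genes, and no pairing was assumed; with the replicate block 2143 genes were called higher and 2084 lower, 14 and 32 over the myeloid lists, Lyz2 was -1.43 and C1qb 0.69, and of the named genes Ikzf2 alone changed its call (adjusted p = 0.0472). Genes under 1 CPM rest on few independent fragments, whose number is unknown.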

Other observations

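The complement genes C3 and Serping1 stood apart in WT replicate 3. C3, the central complement protein, was 9.54 CPM there against 2.52 and 2.89 CPM in the other WT libraries and 4.27 to 5.76 CPM in KO. Serping1 was 0.513 CPM in WT replicate 3 against 0 and 0.042 CPM in the other WT libraries and 0.135 to 0.420 CPM in KO.

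Across the 6 libraries, the genes whose log2 CPM followed Csf1r most closely among 11078 genes at a mean log2 CPM of 1 or more were Cuedc1 (Pearson r = 0.996), Slc6a8 (0.991) and Rhbdd3 (0.990). For C1qa they were Dnajb9 (0.998), Map3k8 (0.996) and Mir22hg (0.996). These values are a description over 6 points that share a difference between the groups.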
